A study of Homo sapiens with 24 samples.

Results

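The collagen prolyl and lysyl hydroxylases are 6 genes of the 23106 gene symbols counted in the series, chosen by symbol: P4HA1, P4HA2 and P4HA3, which encode the catalytic alpha subunits of collagen prolyl 4-hydroxylase, and PLOD1, PLOD2 and PLOD3, which encode the lysyl hydroxylases. All 6 symbols had a row in each of the 24 libraries. Polyadenylated RNA came from A549 (lung cancer), HCT-116 (colorectal cancer), PC3 (prostate cancer) and T47D (breast cancer) cells, kept either in 21% oxygen (normoxia) or in 0.5% oxygen for 16 h (hypoxia), with 3 replicates in each of the 8 groups. All lines are established cancer cell lines grown as cultures of 1 cell type, each with 10% serum. A549 and PC3 cells grew in F12K, HCT-116 in McCoy's 5a and T47D in DMEM. Differences between lines therefore cannot be told apart from those of the medium, except between A549 and PC3 cells, which shared one. The paper also names alternative kits for RNA and for libraries and alternative sequencers. It does not say which libraries each served, so they may differ between lines, A549 and PC3 included. The labels do not say whether replicates were separate cultures, so p values measure the spread between these libraries, which may be technical.

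These enzymes act on procollagen chains in the endoplasmic reticulum and need molecular oxygen, 2-oxoglutarate and iron. Prolyl 4-hydroxylase is a tetramer of alpha subunits with P4HB (protein disulfide isomerase), and the hydroxyproline it makes stabilizes the collagen triple helix. Lysyl hydroxylases make hydroxylysine, which carries sugars and takes part in the cross-links that lysyl oxidases later form between collagen molecules; PLOD2 hydroxylates the telopeptides, and PLOD3 also transfers sugars to hydroxylysine. Oxygen also sets the activity of the hypoxia-inducible factors (HIF), transcription factors that bind the core letters ACGTG or GCGTG, and P4HA1, P4HA2, PLOD1 and PLOD2 are textbook targets of HIF. The comparison of hypoxia with normoxia asks how each enzyme gene responded in each line.

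The libraries held 22698584 to 62850747 counts on genes (median, 56109795.5), and 3 counts, taken as the least a library can show, were 0.0436 to 0.132 CPM (the gene's count relative to the library's total, scaled by edgeR's TMM factors). All 5 epithelial markers (EPCAM, KRT8, KRT18, KRT19 and CDH1) reached 1 CPM in every line, and their summed level was higher in all 3 hypoxic than in all 3 normoxic libraries of HCT-116 (6225 to 8363 against 2014 to 3438 CPM), PC3 (4549 to 4606 against 3475 to 4034 CPM) and T47D cells (16183 to 26002 against 7516 to 13997 CPM). All 5 lung markers, the surfactant genes included, stayed under 1 CPM in A549 cells, 4 of 5 colon markers did so in HCT-116 cells, KLK2 and KLK3 did so in PC3 cells, and all 5 luminal breast markers were above it in T47D cells. Of 6 fibroblast markers, COL1A1 alone reached 1 CPM, in each of the 4 lines, and COL1A2, COL3A1, DCN, LUM and PDGFRB did not. Of 5 hypoxia check genes (CA9, VEGFA, SLC2A1, PDK1 and ANGPTL4), 5 were upregulated in A549, HCT-116 and T47D cells and 4 in PC3 cells, where PDK1 had means of 59.9 CPM in normoxia and 67.3 CPM in hypoxia. Of the 4, VEGFA in PC3 cells (log2 fold change 0.56, adjusted p = 0.0128) was not called with offsets for GC content and length (0.08, adjusted p = 0.714), also with the replicate block (0.08, adjusted p = 0.639), or in one fit of all 24 libraries (0.62, adjusted p = 0.0653). In RNA of whole cultures, fewer cells with a transcript and less of it per cell cannot be told apart.

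The DNA before the start sites of 4 genes is shown because these genes moved together in hypoxia. Only some of them hold the HIF core letters in the stretch shown, which was taken at 1 start per gene. The stretches are the 250 bases before the RefSeq start (GRCh38.p14, 5′ to 3′ on the gene's strand), and capitals mark ACGTG or GCGTG on either strand (CACGT or CACGC when read on the other strand). They lie at chr10:73096867-73097116 (minus strand) for P4HA1, chr5:132227092-132227341 (minus strand) for P4HA2, chr1:11934467-11934716 (plus strand) for PLOD1 and chr3:146161185-146161434 (minus strand) for PLOD2.
P4HA1: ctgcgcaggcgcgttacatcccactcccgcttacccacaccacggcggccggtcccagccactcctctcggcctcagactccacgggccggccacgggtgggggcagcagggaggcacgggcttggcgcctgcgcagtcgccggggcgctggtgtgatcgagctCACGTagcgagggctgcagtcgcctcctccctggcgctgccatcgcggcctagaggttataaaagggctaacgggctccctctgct
P4HA2: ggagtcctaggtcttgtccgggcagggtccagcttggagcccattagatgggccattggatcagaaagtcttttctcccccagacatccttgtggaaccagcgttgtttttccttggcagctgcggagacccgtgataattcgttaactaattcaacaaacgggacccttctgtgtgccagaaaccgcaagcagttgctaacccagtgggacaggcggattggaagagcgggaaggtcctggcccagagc
PLOD1: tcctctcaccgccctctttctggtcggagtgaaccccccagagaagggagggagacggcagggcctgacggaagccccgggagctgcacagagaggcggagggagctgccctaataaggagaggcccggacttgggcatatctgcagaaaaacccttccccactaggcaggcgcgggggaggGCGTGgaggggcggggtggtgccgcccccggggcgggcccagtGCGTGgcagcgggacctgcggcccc
PLOD2: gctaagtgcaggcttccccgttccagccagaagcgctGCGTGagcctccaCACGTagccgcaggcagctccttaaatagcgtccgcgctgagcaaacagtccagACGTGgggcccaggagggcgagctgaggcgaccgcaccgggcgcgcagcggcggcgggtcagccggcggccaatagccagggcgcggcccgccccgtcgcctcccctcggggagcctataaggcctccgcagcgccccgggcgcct
PLOD2 had 3 matches, at 213, 200 and 146 bases before the start, PLOD1 had 2 and P4HA1 had 1, whereas P4HA2 and PLOD3 had 0. Of 35116 promoters, 43.2% held at least 1 match in these 250 bases, and 10.1% held at least 3 in a window that also takes the 50 bases after the start. A match describes letters only, and its absence says nothing of binding elsewhere.

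P4HA1, P4HA2, PLOD1 and PLOD2 were upregulated in all 4 cell lines, PLOD3 rose by less and was called in A549 and HCT-116 cells, and P4HA3 was called in none. A call required an adjusted p under 0.05 (edgeR's quasi-likelihood test within each line, Benjamini-Hochberg adjustment over all genes tested in that line) and a fold change over 1.2. The members called were 5 of 6 in A549 cells, 5 of 6 in HCT-116 cells, 4 of 6 in PC3 cells and 4 of 5 tested in T47D cells, all of them higher in hypoxia. Over all genes tested, 17.6%, 23.3%, 16.6% and 6.55% were called higher in hypoxia in A549, HCT-116, PC3 and T47D cells. Those called lower were 17.8%, 27.0%, 15.7% and 6.69%. For T47D cells the background depended on the fit. Of 14085 genes there, 922 were called higher and 942 lower. With a term for the replicate number (the replicate block), 1281 were called higher and 1485 lower. The median log2 fold change of the members tested was 1.10 in A549, 1.97 in HCT-116, 0.75 in PC3 and 1.88 in T47D cells, beside medians of all genes of -0.01, -0.03, -0.01 and -0.01. P4HA1 and PLOD2 belong to a set of genes that the study selected across cell lines by 2 criteria. The genes were raised by hypoxia, and they lay near sites bound by HIF in ChIP-seq, an assay of binding to DNA. P4HA2 and PLOD1 belong to a second such set. Both selections used these RNA libraries, so the direction of the 4 genes here is not independent evidence.

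**Figure D1:**
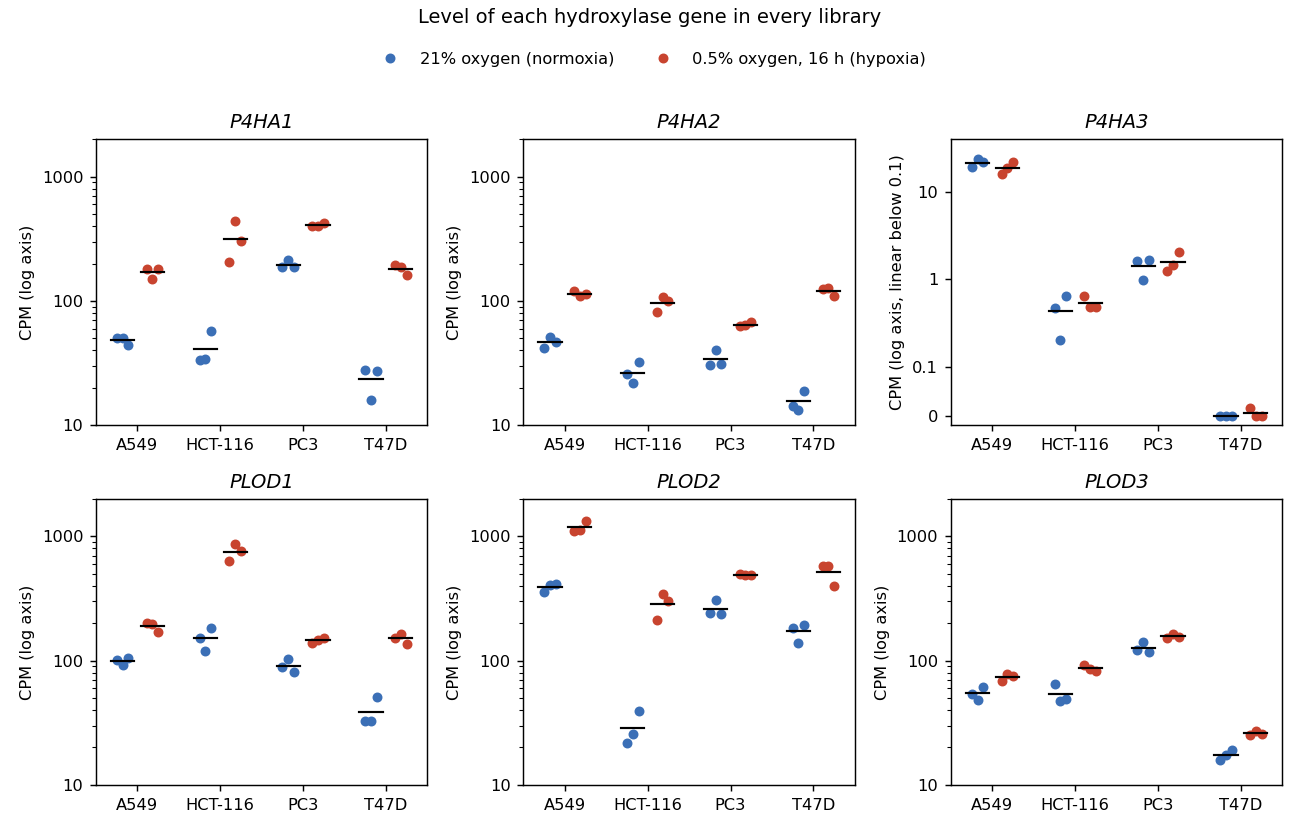
Level of each gene in every library (CPM, log axis; for P4HA3 linear below 0.1 CPM), by cell line, with normoxia in blue, hypoxia in red and the mean of 3 libraries as a black bar. The hypoxic libraries lie above the normoxic ones in all 4 lines for the 5 genes other than P4HA3, whose levels overlap and are at 0 in all but 1 of the T47D libraries.

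P4HA1, on chromosome 10 (GRCh37, 74766975 to 74856732, minus strand), encodes the first alpha subunit of prolyl 4-hydroxylase, the major one in most cells. In A549 cells its level was 50.6, 50.01 and 44.5 CPM in normoxic replicates 1 to 3 and 182, 149 and 180 CPM in hypoxic ones. All hypoxic libraries were above all normoxic ones, by 3.51-fold (log2 fold change 1.81, SE 0.12, adjusted p = 1.07e-06). HCT-116 cells had 33.2, 34.2 and 56.9 CPM in normoxia and 206, 442 and 305 CPM in hypoxia. Its hypoxic libraries differed from each other by more than those of the other lines, with replicate 2 the highest and replicate 1 the lowest, and still none overlapped with normoxia (7.09-fold, log2 fold change 2.83, SE 0.29, adjusted p = 4.82e-05). PC3 cells started from the highest level, 186, 213 and 188 CPM, and reached 399, 400 and 426 CPM. This was the smallest change of the gene among the lines, 2.01-fold (log2 fold change 1.01, SE 0.09, adjusted p = 0.000233). T47D cells went from 27.9, 16.0 and 27.5 CPM to 196, 189 and 162 CPM. The groups stood apart here too (7.24-fold, log2 fold change 2.86, SE 0.25, adjusted p = 1.81e-05). P4HA1 shares 47 exon bases with an antisense gene, and the strand setting of the counting is not given in the sources used here, so reads of such pairs cannot be told apart.

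P4HA2, on chromosome 5 (131525840 to 131631008, minus strand), encodes the second alpha subunit, best known from cartilage and endothelium. Its A549 levels were 42.2, 51.5 and 46.4 CPM in normoxia and 119, 109 and 114 CPM in hypoxia. Both groups were narrow and did not overlap (2.44-fold, log2 fold change 1.28, SE 0.11, adjusted p = 1.2e-05). HCT-116 cells had 25.7, 21.8 and 32.2 CPM and, in hypoxia, 81.2, 108 and 99.2 CPM. The lowest hypoxic library was well above the highest normoxic one (3.34-fold, log2 fold change 1.74, SE 0.20, adjusted p = 8.98e-05). PC3 cells changed least, from 30.6, 40.2 and 31.0 CPM to 62.5, 64.0 and 67.4 CPM (1.84-fold, log2 fold change 0.88, SE 0.11, adjusted p = 0.00124). Normoxic replicate 2 was the highest of its group, without reaching the hypoxic range. T47D cells had the lowest level in normoxia, 14.3, 13.3 and 19.0 CPM, and the highest in hypoxia, 124, 126 and 109 CPM. This was the largest response of the gene, 7.30-fold (log2 fold change 2.87, SE 0.21, adjusted p = 4.02e-06). P4HA2 shares 548 exon bases with P4HA2-AS1 on the other strand.

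P4HA3, on chromosome 11 (73946846 to 74022685, minus strand), encodes the third alpha subunit, the least widely expressed one. A549 was the only line with a level above 3 CPM, with 19.2, 23.6 and 22.3 CPM in normoxia and 16.1, 18.6 and 21.8 CPM in hypoxia. The ranges overlapped, and the log2 fold change of -0.21 had a 95% interval from -0.51 to 0.09 (adjusted p = 0.259), whose upper end lay below the lower ends of the intervals of P4HA1 (1.55) and P4HA2 (1.04) in these cells. PC3 cells had 1.62, 0.976 and 1.67 CPM in normoxia and 1.24, 1.45 and 2.06 CPM in hypoxia, and HCT-116 cells, at 9 to 41 counts per library, had 0.468, 0.201 and 0.654 CPM against 0.656, 0.479 and 0.485 CPM. Neither change was called (log2 fold change 0.13 in PC3 cells, 95% interval -0.59 to 0.84, and 0.18 in HCT-116 cells, -0.98 to 1.34). Changes in either direction within these intervals are compatible with these libraries. In T47D cells P4HA3 had 0 counts in all libraries except hypoxic replicate 1, which had 1 count, so it was not tested. Against a floor of 3 counts per T47D library, at most 0.0696 CPM, the normoxic level was at least 311-fold higher in A549, 20.4-fold higher in PC3 and 6.33-fold higher in HCT-116 cells. The gene overlaps PPME1 by 166 exon bases and P4HA3-AS1 by 38 on the other strand, which bears most on the lines with few counts.

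PLOD1, on chromosome 1 (11994262 to 12035595, plus strand), encodes lysyl hydroxylase 1, which acts mainly on lysines within the triple helix. A549 cells had 102, 92.7 and 104 CPM in normoxia and 199, 197 and 169 CPM in hypoxia. The increase was 1.88-fold with no overlap (log2 fold change 0.91, SE 0.11, adjusted p = 0.000157). HCT-116 cells had 151, 120 and 183 CPM in normoxia and 633, 864 and 754 CPM in hypoxia. No other line came near this hypoxic level, and the increase was 4.58-fold (log2 fold change 2.19, SE 0.23, adjusted p = 4.91e-05). PC3 cells rose from 88.6, 103 and 81.2 CPM to 139, 147 and 152 CPM, the smallest change of the gene (1.55-fold, log2 fold change 0.63, SE 0.10, adjusted p = 0.0027). T47D cells rose from 32.5, 32.7 and 51.3 CPM to 153, 163 and 137 CPM. Normoxic replicate 3 was the highest of its group but far below hypoxia (3.69-fold, log2 fold change 1.88, SE 0.22, adjusted p = 0.000215).

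PLOD2, on chromosome 3 (145752926 to 145881512, minus strand), encodes lysyl hydroxylase 2, the telopeptide enzyme. A549 cells had 360, 409 and 413 CPM in normoxia and 1110, 1116 and 1330 CPM in hypoxia, the highest levels of the gene among the lines. The increase was 2.999-fold without overlap (log2 fold change 1.58, SE 0.12, adjusted p = 3.21e-06). HCT-116 cells had only 21.7, 25.5 and 39.4 CPM in normoxia and 212, 343 and 303 CPM in hypoxia. At 9.19-fold this was the largest response of any member in any line (log2 fold change 3.20, SE 0.26, adjusted p = 1.48e-05), rank 28 of 13614 genes ordered from the most increased. PC3 cells had 241, 306 and 238 CPM and then 495, 490 and 487 CPM, which was a narrow range in hypoxia. The change was 1.81-fold (log2 fold change 0.86, SE 0.10, adjusted p = 0.00119). T47D cells had 182, 138 and 195 CPM and then 580.1, 580.6 and 400.4 CPM. Hypoxic replicate 3 lay below the other hypoxic libraries and above all normoxic ones (2.87-fold, log2 fold change 1.52, SE 0.24, adjusted p = 0.0023).

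PLOD3, on chromosome 7 (100849258 to 100861701, minus strand), encodes lysyl hydroxylase 3, which also has glycosyltransferase activity. Its hypoxic libraries were above its normoxic ones in all 4 lines, by small margins. A549 cells had 54.2, 48.6 and 60.9 CPM in normoxia and 68.7, 78.2 and 75.5 CPM in hypoxia (1.35-fold, log2 fold change 0.44, SE 0.11, adjusted p = 0.0116). HCT-116 cells had 64.9, 47.01 and 49.0 CPM and 91.8, 85.3 and 82.7 CPM (1.48-fold, log2 fold change 0.57, SE 0.20, adjusted p = 0.0286). PC3 cells had 121, 142 and 118 CPM and 151, 165 and 154 CPM, a 1.19-fold difference that was not called (log2 fold change 0.26, 95% interval 0.05 to 0.46, adjusted p = 0.0562). T47D cells had the lowest levels, 15.7, 17.4 and 18.9 CPM and 25.3, 27.0 and 25.5 CPM, and their 1.41-fold difference was not called either (log2 fold change 0.50, 95% interval 0.11 to 0.89, adjusted p = 0.0849). Under the alternatives tried, PLOD3 was the only member whose calls within a line changed. With offsets for GC content and transcript length (61.4% GC, the highest of the 6 genes), the log2 fold change was 0.25 in A549 cells (adjusted p = 0.0905) and 0.22 in HCT-116 cells (adjusted p = 0.326), in T47D cells one fit of all 24 libraries gave 0.58 (adjusted p = 0.00384), and the calls were lost without A549 hypoxic replicate 2 (adjusted p = 0.0554) or normoxic replicate 2 (0.0672), or without HCT-116 hypoxic replicate 1 (0.0505), hypoxic replicate 3 (0.0588) or normoxic replicate 3 (0.0656), and gained in PC3 cells without normoxic replicate 2 (0.0221). The calls in A549 and HCT-116 cells were also lost with the offsets and the replicate block together (adjusted p = 0.0633 and 0.243). A fold change limit of 1.5 ended both calls too. PLOD3 shares 102 exon bases with ZNHIT1 on the other strand.

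**Figure D2:**
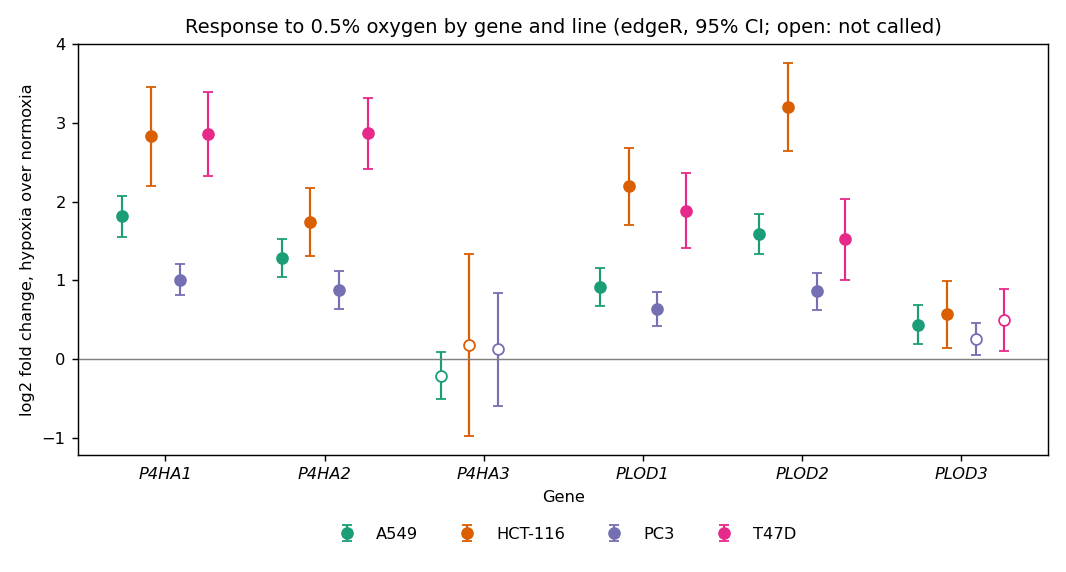
Log2 fold change of hypoxia over normoxia with its 95% confidence interval (edgeR, n = 3 against 3), by gene and coloured by cell line; filled points were called and open points were not, and P4HA3 has no point in T47D cells. P4HA1, P4HA2, PLOD1 and PLOD2 lie above 0 in every line and lowest in PC3 cells, PLOD3 lies between 0.26 and 0.57, and the intervals of P4HA3 include 0.

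The size of the response was then compared between lines as the interaction of line and oxygen in one edgeR fit of all 24 libraries. It differed for P4HA1 (adjusted p = 0.000537), P4HA2 (1.31e-05), PLOD1 (0.000145) and PLOD2 (4.97e-05), and was not called for P4HA3 (0.590) or PLOD3 (0.385). Over all 16089 genes, 18.3% were called. Between pairs of lines, 14 of 36 comparisons were called. HCT-116 against PC3 had the most, with 4 members (background 14.9%): the HCT-116 response exceeded that of PC3 by 1.88 on the log2 scale for P4HA1 (SE 0.32, adjusted p = 0.000846), 0.93 for P4HA2 (SE 0.23, adjusted p = 0.00998), 1.63 for PLOD1 (SE 0.25, adjusted p = 0.000275) and 2.40 for PLOD2 (SE 0.30, adjusted p = 2.71e-05). The call for P4HA2 was lost without PC3 normoxic replicate 2 (adjusted p = 0.0613), and PLOD3 gained one without HCT-116 normoxic replicate 1 (0.55, adjusted p = 0.0398). The pair of HCT-116 and T47D cells differed in opposite directions for 2 members (background 9.07%): the P4HA2 response was larger in T47D cells (HCT-116 minus T47D, -1.09, SE 0.23, adjusted p = 0.0053) and the PLOD2 response was larger in HCT-116 cells (1.71, SE 0.30, adjusted p = 0.00111). For P4HA1 in this pair the difference was 0.00, with a 95% interval from -0.69 to 0.69.

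PC3 against T47D (background 2.25%) differed for P4HA1 (PC3 minus T47D, -1.88, SE 0.32, adjusted p = 0.00144), P4HA2 (-2.02, SE 0.23, adjusted p = 5.29e-06) and PLOD1 (-1.27, SE 0.25, adjusted p = 0.00455), all larger in T47D cells. A549 against HCT-116 (background 16.7%) differed for P4HA1 (A549 minus HCT-116, -1.12, SE 0.32, adjusted p = 0.0216), PLOD1 (-1.39, SE 0.25, adjusted p = 0.00136) and PLOD2 (-1.72, SE 0.30, adjusted p = 0.000974), all larger in HCT-116 cells. In this pair P4HA1 lost its call without A549 hypoxic replicate 2 (adjusted p = 0.0535), A549 normoxic replicate 1 (0.0596), 2 (0.0534) or 3 (0.0531), HCT-116 hypoxic replicate 2 (0.0763) or HCT-116 normoxic replicate 2 (0.0764), and P4HA2 gained one without HCT-116 normoxic replicate 3 (0.0283). A549 against T47D (background 2.11%) differed for P4HA2 (A549 minus T47D, -1.65, SE 0.23, adjusted p = 0.000139) and PLOD1 (-1.04, SE 0.25, adjusted p = 0.0239). That of PLOD1 was lost without A549 hypoxic replicate 3 (0.0723), A549 normoxic replicate 1 (0.0746) or 3 (0.0736), T47D hypoxic replicate 1 (0.0658) or 2 (0.0741), or T47D normoxic replicate 1 (0.0950) or 2 (0.0948). P4HA1 was not called in this pair (-1.12, SE 0.32, adjusted p = 0.0720) but was with the replicate block (0.0486), with DESeq2 (0.0385) and without HCT-116 hypoxic replicate 1 (0.0373) or 2 (0.0385) or normoxic replicate 3 (0.0429). A549 against PC3 (background 0.758%) had no member called, with differences from -0.39 for P4HA3 to 0.76 for P4HA1 (95% interval 0.09 to 1.42, adjusted p = 0.399).

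In 21% oxygen the lines already differed widely, with 32 of 36 comparisons of a member between a pair of lines called (adjusted p under 0.05, fold change over 1.2). Over all genes, 65.0% were called between A549 and HCT-116 cells, 60.5% between A549 and PC3, 67.7% between A549 and T47D, 66.0% between HCT-116 and PC3, 69.0% between HCT-116 and T47D and 68.1% between PC3 and T47D. The normoxic order of P4HA1 was PC3 (196 CPM ± 15.0, SD, n = 3), A549 (48.4 ± 3.36), HCT-116 (41.4 ± 13.4) and T47D (23.8 ± 6.77), with A549 and HCT-116 not called different. For P4HA2 it was A549 (46.7 ± 4.66), PC3 (33.9 ± 5.42), HCT-116 (26.5 ± 5.25) and T47D (15.6 ± 3.03), with PC3 and HCT-116 not called different (adjusted p = 0.0558). PLOD1 was highest in HCT-116 cells (151 ± 31.6), followed by A549 (99.6 ± 6.13) and PC3 (90.9 ± 11.1), not called different, and T47D (38.8 ± 10.8). PLOD2 had the widest range of the 5 genes detected in every line, from A549 (394 ± 29.5) over PC3 (261 ± 38.8) and T47D (172 ± 30.1) to HCT-116 cells (28.9 ± 9.29). PLOD3 was highest in PC3 cells (127 ± 12.8), with A549 (54.6 ± 6.12) and HCT-116 (53.6 ± 9.81) not called different and T47D (17.4 ± 1.60) lowest.

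The order held for most neighbours, with these exceptions. The P4HA1 difference of HCT-116 and T47D was lost without HCT-116 normoxic replicate 3 (adjusted p = 0.0587) or T47D normoxic replicate 2 (0.0585), and the PLOD2 difference of PC3 and T47D without PC3 normoxic replicate 2 (0.114) or T47D normoxic replicate 2 (0.125) and with scaling to library totals (0.0513). With that scaling P4HA2 was also no longer different between A549 and PC3 cells (0.0629) and became so between HCT-116 and PC3 cells (0.0333), as it did without HCT-116 hypoxic replicate 1 (0.0493), HCT-116 normoxic replicate 3 (0.0116), T47D hypoxic replicate 3 (0.0495) or T47D normoxic replicate 3 (0.0454). From the line with the lowest to the line with the highest mean, P4HA1 spanned 8.23-fold in normoxia and 2.40-fold in hypoxia, P4HA2 2.999-fold and 1.85-fold, and PLOD2 13.6-fold and 4.14-fold. PLOD1 spanned 3.90-fold and 5.14-fold and PLOD3 7.31-fold and 6.05-fold. These spans were not tested.

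Levels of different genes were compared per exon length, on the TPM scale (counts per kilobase of all exons of the gene, scaled to the same sum in each library). P4HA1 had the largest share of the prolyl 4-hydroxylase alpha subunit transcripts in every group, from 60.9% ± 3.23 (SD, n = 3) in normoxic A549 cells to 95.1% ± 0.0902 in hypoxic PC3 cells. In A549 cells P4HA3 held 21.2% ± 1.96 in normoxia and 6.67% ± 1.10 in hypoxia, while P4HA1 went from 60.9% ± 3.23 to 77.4% ± 1.55. P4HA3 had the only flat level of the 3 subunits in these cells, and its share fell as the sum of the family went from 103 to 272 TPM. HCT-116 cells moved from 16.6% ± 2.18 to 8.89% ± 1.88 P4HA2 and from 82.7% ± 2.29 to 91.0% ± 1.95 P4HA1. In T47D cells, where both genes rose more than 7-fold, the P4HA2 share was 17.1% ± 3.38 and 16.7% ± 0.434. With the length of the longest transcript in place of all exons, P4HA1 held 47.9% ± 3.36 in normoxic and 64.9% ± 1.89 in hypoxic A549 cells, and the P4HA2 shares were higher (28.8% ± 3.21 and 16.6% ± 3.23 in HCT-116 cells, 29.6% ± 5.00 and 29.1% ± 0.644 in T47D cells), since its exons sum to 10128 bases and its longest transcript to 4553.

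**Figure D3:**
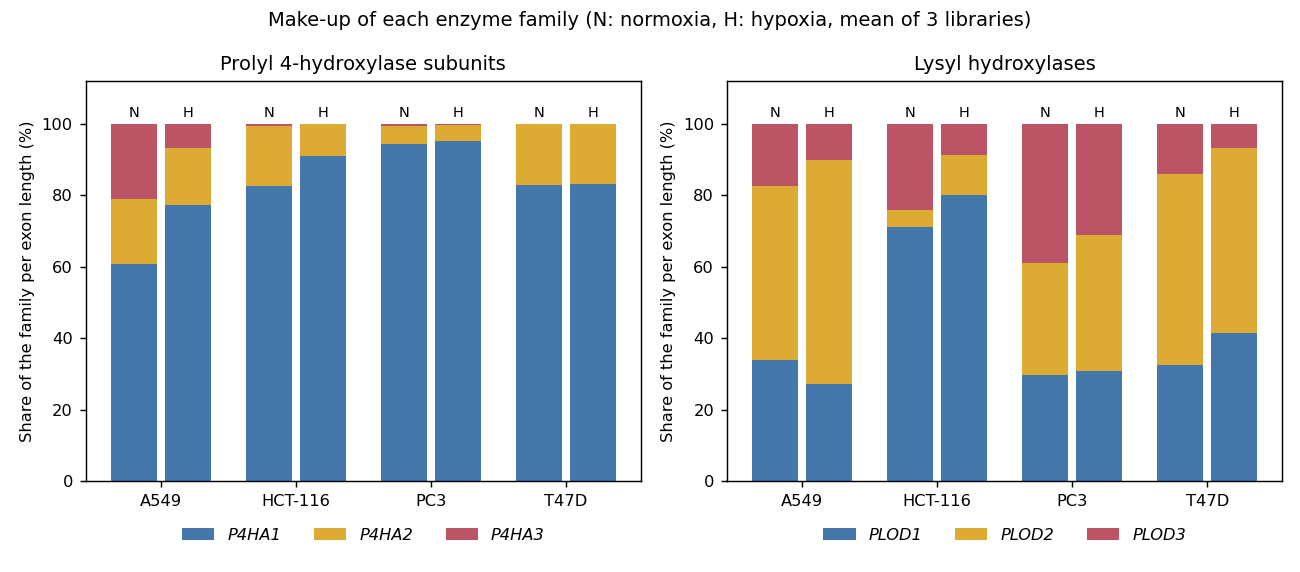
Share of each gene in its enzyme family per exon length (percent of the summed TPM, mean of 3 libraries), by cell line in normoxia (N) and hypoxia (H). P4HA1 leads the prolyl 4-hydroxylases in all 8 groups, and the leading lysyl hydroxylase is PLOD2 in A549 and T47D cells, PLOD1 in HCT-116 cells, and PLOD3 in normoxic and PLOD2 in hypoxic PC3 cells.

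The lysyl hydroxylases had no single leading gene. PLOD2 led in 5 of the 8 groups with either measure of length. In A549 cells its share went from 48.9% ± 2.88 in normoxia to 62.6% ± 3.82 in hypoxia, and in T47D cells it was 53.4% ± 4.49 and 51.8% ± 3.59. HCT-116 cells were led by PLOD1, with 71.0% ± 3.61 and 80.1% ± 0.658, and their PLOD2 share, 4.98% ± 1.21 and 11.1% ± 1.17, stayed the lowest of the lines in both states although the gene rose 9.19-fold. PC3 cells were the most even, with 29.7% ± 0.676 PLOD1, 31.3% ± 0.968 PLOD2 and 39.0% ± 0.749 PLOD3 in normoxia. Their hypoxic shares were 30.9% ± 0.953, 38.0% ± 1.05 and 31.1% ± 0.914. With the length of the longest transcript, PLOD3 (37.51% ± 0.780) and PLOD2 (37.04% ± 1.05) were close in normoxic PC3 cells, and their libraries overlapped. The size of the PLOD3 lead there thus depended on the length used. The PLOD2 share was higher with this length in every group. The PLOD3 share was lower in hypoxia in each line, from 17.3% ± 1.31 to 10.0% ± 0.654 in A549, 24.004% ± 4.56 to 8.84% ± 1.75 in HCT-116 and 14.005% ± 2.10 to 6.73% ± 0.929 in T47D cells. The summed lysyl hydroxylase level went from 223 to 497 TPM in A549, 153 to 695 TPM in HCT-116, 258 to 390 TPM in PC3 and 106 to 311 TPM in T47D cells. Shares were not tested.

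P4HB, the common partner subunit of the alpha chains, had 833 CPM ± 47.1 in normoxia and 1205 ± 60.3 in hypoxia in A549 cells (mean ± SD, n = 3, log2 fold change 0.53, adjusted p = 0.00269). It was called upregulated in HCT-116 (930 ± 183 to 2441 ± 256 CPM, 1.28, adjusted p = 0.000617), PC3 (909 ± 89.1 to 1222 ± 53.0 CPM, 0.38, adjusted p = 0.015) and T47D cells (1040 ± 392 to 2124 ± 219 CPM, 0.96, adjusted p = 0.0428) too. These calls were lost with offsets for GC content and transcript length in A549 (0.12, adjusted p = 0.476), HCT-116 (0.46, adjusted p = 0.0917), PC3 (-0.04, adjusted p = 0.688) and T47D cells (0.63, adjusted p = 0.197). In T47D cells, whose numbers paired the libraries, the offsets together with the replicate block kept the call (0.64, adjusted p = 0.0401). With these offsets P4HA1, P4HA2, PLOD1 and PLOD2 kept their calls in all 4 lines, with log2 fold changes from 0.46 to 3.89. One fit of all 24 libraries ended it in A549 (adjusted p = 0.0670) and PC3 cells (0.182). Leaving out 1 library also ended the P4HB call in PC3 cells for hypoxic replicate 1 (adjusted p = 0.0591), hypoxic replicate 2 (0.0727) and normoxic replicate 1 (0.0594), and in T47D cells for hypoxic replicate 1 (0.109), hypoxic replicate 2 (0.0635), normoxic replicate 1 (0.223) and normoxic replicate 2 (0.149).

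Around these enzymes, the lists of collagen biosynthesis genes moved less evenly. The collagen folding list (5 genes, P4HB included) had 2 genes upregulated in each line, and 1, 2, 1 and 2 downregulated in A549, HCT-116, PC3 and T47D cells, with list medians of 0.08, 0.09, -0.07 and 0.19. TMEM38B, an endoplasmic reticulum cation channel whose loss disturbs collagen synthesis, was called downregulated in all 4 lines (log2 fold change -0.66, -1.96, -0.53 and -1.03 in A549, HCT-116, PC3 and T47D cells). With the offsets for GC content and length it was not called in A549 (-0.25, adjusted p = 0.0772), PC3 (-0.07, adjusted p = 0.597) or T47D cells (-0.49, adjusted p = 0.109). It was also not called in one fit of all 24 libraries in PC3 cells (adjusted p = 0.172), nor without PC3 hypoxic replicate 1 (0.0727), 2 (0.0599) or 3 (0.0641), or without T47D hypoxic replicate 2 (0.0689) or normoxic replicate 1 (0.146) or 2 (0.0933). Of the prolyl 3-hydroxylase complex (6 genes, 5 of them tested in T47D cells), which modifies a few prolines at another carbon, 2, 1, 1 and 1 were upregulated and none was downregulated. P3H2 in this list was called in A549 (0.91, adjusted p = 0.000138) and HCT-116 cells (1.29, adjusted p = 0.0179). PPIB, the prolyl isomerase of the complex, had log2 fold changes from -0.50 to -0.06 with no call. In HCT-116 cells PPIB was called lower with the GC and length offsets (-0.77, adjusted p = 0.00792), also with the replicate block (-0.75, 0.00258). It was called there without normoxic replicate 1 as well (0.0341).

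COLGALT1, which adds galactose to hydroxylysine, was upregulated in A549 cells (0.51, adjusted p = 0.00386) and had 0.49, 0.04 and 0.41 in HCT-116, PC3 and T47D cells with no call. In HCT-116 cells it was called with DESeq2 (adjusted p = 0.0327), no filter on low counts (0.0377), the replicate block (0.0332), a minimum of 50 on the mean count (0.0463) or one fit of all 24 libraries (0.00111), and without normoxic replicate 1 (0.0127), and in T47D cells with that joint fit (0.0178). The procollagen export list had 6 genes, 5 of them tested in PC3 and in T47D cells. Upregulated were 0, 2, 1 and 0 and downregulated 0, 1, 0 and 0. The gene downregulated in HCT-116 cells was MIA2 (-1.69, adjusted p = 0.0243), named after its value was seen. SEC24D, a coat protein of export vesicles, was called in HCT-116 (1.15, adjusted p = 0.00125) and PC3 cells (0.63, adjusted p = 0.0113), and KLHL12, a ubiquitin ligase adaptor of that coat, had log2 fold changes between -0.24 and 0.10 with no call, except in PC3 cells without normoxic replicate 3 (-0.35, adjusted p = 0.0211). Of 8 genes of propeptide removal, 4, 7, 6 and 3 were tested in A549, HCT-116, PC3 and T47D cells. None was called in A549, PC3 or T47D cells. In HCT-116 cells 3 were upregulated and 1 was downregulated. There PCOLCE2, an enhancer of procollagen processing, rose (0.997, adjusted p = 0.00106), while the related PCOLCE had log2 fold changes of 0.48 to 0.98 over the lines with no call. PCOLCE was called in PC3 cells with DESeq2 (adjusted p = 0.0377), with the replicate block (0.0484) and without normoxic replicate 1 (0.0440), and in T47D cells in one fit of all 24 libraries (0.0223) and with the GC and length offsets together with the replicate block (0.0386).

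The lysyl oxidases, which act on the lysines and hydroxylysines downstream of the PLOD enzymes, had 3, 2, 4 and 1 of 5 genes upregulated in A549, HCT-116, PC3 and T47D cells, with list medians of 0.82, 0.28, 0.93 and 1.23. LOX went from 0.683 CPM ± 0.124 to 16.6 ± 2.94 in A549 cells (log2 fold change 4.598, adjusted p = 7.47e-08), from 1.33 ± 0.0485 to 2.62 ± 0.514 in PC3 cells (0.93, adjusted p = 0.0163) and from 0.485 ± 0.135 to 9.87 ± 2.87 in T47D cells (4.26, adjusted p = 1.08e-05). The PC3 call was lost without hypoxic replicate 3 (adjusted p = 0.0703) and in one fit of all 24 libraries (0.0756). In HCT-116 cells LOX was at 0.684 CPM ± 0.388 in normoxia and 0.245 ± 0.0967 in hypoxia, with overlapping libraries. It was called downregulated there (-1.64, adjusted p = 0.0441), and this call was lost without hypoxic replicate 1 (0.0709), 2 (0.142) or 3 (0.0763) or normoxic replicate 1 (0.239) or 2 (0.111) and with no filter on low counts (0.0514). LOXL3 had no call in any line (-0.25 to 0.11). The 2 lysyl oxidases upregulated in HCT-116 cells, named after their values were seen, were LOXL2 and LOXL4. LOXL2 went there from 13.8 CPM ± 3.27 to 159 ± 69.7 (3.40, adjusted p = 1.85e-05). LOXL4 went from 1.71 ± 0.485 to 4.79 ± 1.92 (1.37, adjusted p = 0.00712).

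Of 30 collagen chains, the substrates of the family, 24, 19, 22 and 17 were tested in A549, HCT-116, PC3 and T47D cells. Upregulated were 12, 7, 13 and 2 of them and downregulated 1, 1, 0 and 0, and the list medians were 0.52, 0.36, 0.40 and 0.45. With the offsets for GC content and length the upregulated chains were 4, 2, 5 and 0, and in T47D cells, whose same-numbered libraries deviated together, the fit with the replicate block gave 4. Fits without 1 library gave 6 to 12 in A549, 5 to 7 in HCT-116, 5 to 11 in PC3 and 0 to 5 in T47D cells. In A549 cells the count was 6 without hypoxic replicate 2 or normoxic replicate 2 and 7 without normoxic replicate 1. In PC3 cells it was 5 without hypoxic replicate 1, 8 without hypoxic replicate 2, and 7 without hypoxic replicate 3 or normoxic replicate 1. In T47D cells it was 0 without hypoxic replicate 1 or 2 or normoxic replicate 1 or 2, and 5 without hypoxic replicate 3. COL4A4, a basement membrane chain, rose in A549 cells from 9.55 CPM ± 0.749 to 29.1 ± 4.99 (1.60, adjusted p = 1.66e-05) and was called in HCT-116 (0.77, adjusted p = 0.0204) and PC3 cells (1.41, adjusted p = 0.0474), from 5.43 and 0.410 CPM. The HCT-116 call was lost without hypoxic replicate 2 (0.0720) or 3 (0.0566) and with the GC offsets (0.693), and the PC3 call without hypoxic replicate 1 (0.0614), 2 (0.151) or 3 (0.106) or normoxic replicate 1 (0.102) or 3 (0.0919). COL7A1, the anchoring fibril chain, was called downregulated in HCT-116 cells (-1.30, adjusted p = 0.00674; 0.0618 in one fit of all 24 libraries) and, with the GC and length offsets, in A549 cells (-0.79, adjusted p = 0.0188), and in T47D cells its log2 fold change of -1.14 (adjusted p = 0.193) was called with the replicate block (-0.90, adjusted p = 0.0354) or without normoxic replicate 3 (0.0293). Among the other prolyl 4-hydroxylases, which act on HIF or related targets and not on collagen, 2, 2, 3 and 2 of 4 were upregulated. EGLN3, a HIF prolyl hydroxylase, had log2 fold changes of 5.15, 3.28, 1.503 and 3.98, and P4HTM, the transmembrane member, -0.28 to 0.05 with no call. The EGLN3 call in PC3 cells was lost without hypoxic replicate 1 (0.0577) or normoxic replicate 1 (0.0513). P4HTM was called lower with the GC and length offsets in HCT-116 (-0.66, adjusted p = 0.0273) and PC3 cells (-0.34, adjusted p = 0.0464).

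**Figure D4:**
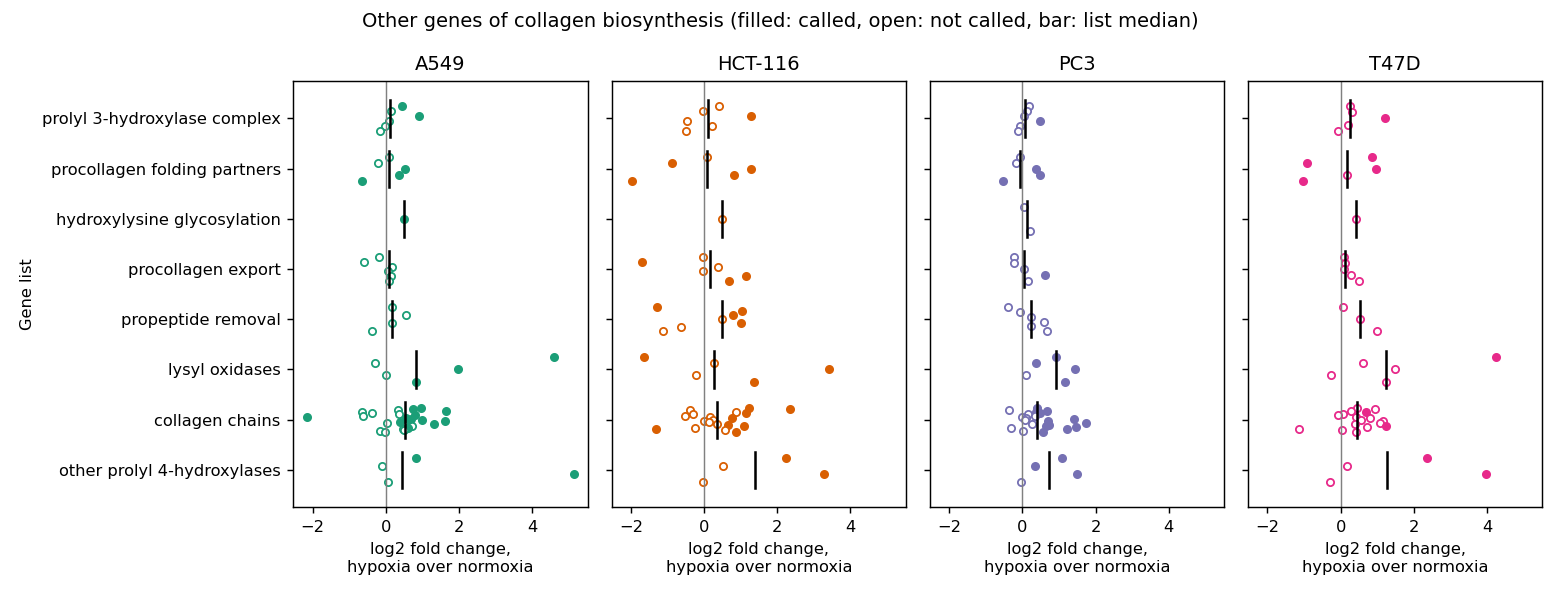
Log2 fold change of hypoxia over normoxia for the other genes of collagen biosynthesis, 1 point per gene tested, by list (rows) and cell line (columns); filled points were called, open points were not, and the black bar is the list median. Lysyl oxidases and the other prolyl 4-hydroxylases reach the highest values in A549, HCT-116 and T47D cells, and the folding list spreads on both sides of 0 in each line, as the export and propeptide lists do in A549, HCT-116 and PC3 cells.

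Across the 24 libraries the members differed in what they resembled. As a description, with lines, oxygen state and replicates shared by all points, log2 CPM levels of P4HA1 were most like those of FUT11 (Pearson r = 0.960), INSIG2 (0.953) and PGAM1 (0.951) among 11269 genes with a mean log2 CPM above 1. P4HA2 was most like EGLN1 (0.958), CA9 (0.939) and ALDOA (0.936), PLOD1 like XPNPEP1 (0.976), THOC6 (0.949) and KIAA2013 (0.946), and PLOD2 like JUN (0.970), TNIP1 (0.965) and AP2B1 (0.962). PLOD3 was most like CD97 (0.986), TOP1MT (0.986) and TMEM158 (0.981), and P4HA3, at or near 0 in most lines, like CSGALNACT1 (0.986), SIK1 (0.982) and ANTXR1 (0.981). After subtraction of each line's mean, which leaves mainly the oxygen response, the closest genes were PLEKHA2 (0.985), ALDOA (0.984) and KDM3A (0.983) for P4HA1, ZNF395 (0.987), QSOX1 (0.982) and BNIP3 (0.980) for P4HA2, GBE1 (0.989), PFKP (0.986) and GPI (0.985) for PLOD1, and KCTD11 (0.977), ENO2 (0.9747) and TNIP1 (0.9746) for PLOD2. PLOD3 was then closest to MEX3D (0.968), DNAJC5 (0.964) and CNNM3 (0.963), and P4HA3 reached no more than 0.672 with SCFD2, 0.670 with PDE4D and 0.635 with SS18. Among the members, P4HA1, P4HA2, PLOD1 and PLOD2 correlated pairwise with r from 0.870 to 0.974 after this subtraction. For their levels r was 0.153 to 0.752. PLOD3 correlated with these 4 genes with r from 0.864 to 0.916 after the subtraction, against 0.193 to 0.687 for levels. P4HA3 correlated with the other 5 with r from 0.235 to 0.292 after the subtraction.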

How the data were processed

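Polyadenylated RNA of 4 cell lines in 21% or 0.5% oxygen was sequenced from strand-marking libraries. Per the paper's methods, the authors trimmed reads (Trim Galore 0.3.3), aligned them to GRCh37 (HISAT2 2.05), dropped fragments that mapped to more than one place (Picard 2.0.1) and counted them on UCSC genes (HTSeq 0.5.4p3, strand setting not given in the sources used here). The deposited values are raw counts per gene symbol and library, 22698584 to 62850747 per library, and intervals and floors that rest on counts alone cover counting error only. Paralogs and other closely similar genes lose reads by that step, strict intersection drops reads that reach outside a gene model, and no removal of PCR duplicates is described.

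Genes with enough counts (edgeR's filter by expression) were scaled by TMM and tested with edgeR 4.0.16 (R 4.3.3, quasi-likelihood F test, Benjamini-Hochberg adjustment over all genes), within each line for hypoxia and in one fit of 24 libraries for differences between lines. Calls needed a fold change over 1.2 at an adjusted p under 0.05. CPM used TMM-scaled totals. DESeq2 1.42.0, other scalings, filters and fold limits, offsets for GC content and transcript length, the replicate block and fits without each library were alternatives. The offsets and the other fold limits were applied only to hypoxia against normoxia within a line. GC content, lengths and coordinates came from GENCODE on GRCh37 (93.4% of symbols matched, 1491 through older symbols), promoters from RefSeq (GRCh38.p14), which were not joined to GRCh37 coordinates and had no P4HA3 entry. The tests were checked on simulated counts. The members and lists were chosen with earlier results of these data known. From each list, the gene with the highest and the one with the lowest median log2 fold change over the lines, among those tested in at least 3 lines, were named, and for likeness the 3 genes with the highest r.

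Groups came from the sample labels, which number replicates alike in both oxygen levels. Hypoxic and normoxic libraries with the same number were compared, each taken relative to its group mean. They correlated above 0.1 in 1 of 3 pairs in A549, 2 of 3 in HCT-116 and 0 of 3 in PC3 cells. In T47D cells 3 of 3 did (0.154 to 0.325), so by that rule numbers paired libraries in T47D cells only. The rule may miss weak pairing. The same-numbered library was the closest in 4 of 6 cases in A549, 5 of 6 in HCT-116, 6 of 6 in PC3 and 6 of 6 in T47D cells. The PC3 correlations were 0.0785 to 0.0815.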

Additional observations from a re-analysis of the deposited data

Results flagged for a closer look

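The response to hypoxia differed in size between the 4 cell lines for 4 of the 6 genes, by edgeR's test of the interaction of line and oxygen (Benjamini-Hochberg adjustment over all genes). For P4HA1 the adjusted p was 0.000537, with log2 fold changes from 1.01 in PC3 to 2.86 in T47D cells. For P4HA2 it was 1.31e-05, from 0.88 in PC3 to 2.87 in T47D cells. For PLOD1 it was 0.000145, from 0.63 in PC3 to 2.19 in HCT-116 cells. For PLOD2 it was 4.97e-05, from 0.86 in PC3 to 3.20 in HCT-116 cells. All of these values were above 0, so the lines differed in size and not in direction.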

How the results depend on the processing

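Within each line 17 alternatives were run. P4HA1, P4HA2, PLOD1 and PLOD2 kept their direction and their calls under all of them in all 4 lines, and of 388 values of the members under alternatives 375 kept direction and side of the threshold, while those of PLOD3 that changed are given beside the gene. The interaction of line and oxygen gave the same call for each member in 174 of 174 values. These alternatives, like those for pairs of lines and for normoxia, did not include the offsets for GC content and length. Between pairs of lines the members called were 12 to 16 without 1 library and 15 with the replicate block or DESeq2, against 14 of 36, and in normoxia 31 with scaling to library totals against 32. The replicate block changed no call of a member within a line. Without 1 library the members called within a line were 4 to 5 in A549, HCT-116 and PC3 cells and 4 in T47D cells. With GC and length offsets P4HB in PC3 cells turned to -0.0445 (adjusted p = 0.688), and to -0.0443 with the replicate block as well (adjusted p = 0.722). Of 1224 counts of list genes under alternatives, 165 moved.

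Calls over all genes depended on single libraries. In A549 cells they were 3109 without normoxic replicate 2, against 4928. In PC3 cells they were 2183, 2198 and 2651 without hypoxic replicate 1, hypoxic replicate 2 and normoxic replicate 1, against 4346. In T47D cells they were 878, 1030 and 3305 without hypoxic replicates 1, 2 and 3, 199, 407 and 2816 without normoxic replicates 1, 2 and 3, and 3080 with GC and length offsets and the replicate block, against 1864. Scaling to library totals lowered the share of upward calls from 49.8% to 33.9% in A549 and from 49.5% to 32.1% in T47D cells, with median log2 fold changes of all genes of -0.13 and -0.12. The cause was not tested. P4HA3 had 9 to 41 counts per library in HCT-116 cells, 39 to 116 in PC3 cells and 0 to 1 in T47D cells.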
